A study of Homo sapiens with 24 samples.

Results

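The comparison described here is depletion of GLP (encoded by EHMT1) without hormone in Nalm6 cells, an established human B-cell precursor acute lymphoblastic leukemia line. Its members are the 3 libraries labelled shGLP and the 3 libraries labelled shNS that received the vehicle ethanol, 6 of the 24 libraries in the series, chosen from their labels alone. In the study, Nalm6 populations with a hairpin against GLP, G9a or HP1γ, or with the non-specific control hairpin shNS, were each given 100 nM dexamethasone (dex) or the same volume of ethanol for 8 h, and total RNA was sequenced from 3 replicates prepared on separate days. All 24 libraries, the shNS controls included, came from lentivirally transduced, puromycin-resistant populations grown in the same serum-containing medium, so the control for GLP depletion is a transduced cell with another hairpin. The labels name a single shRNA for each target, so an effect of GLP loss and an effect of that hairpin's own sequence on other transcripts cannot be told apart. In bulk RNA, a smaller share of cells carrying a transcript and less of that transcript in each cell cannot be told apart either.

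GLP and its partner G9a are lysine methyltransferases that form heterodimers and place mono- and dimethylation on lysine 9 of histone H3, a mark that HP1 proteins bind and that is best known for silencing genes in euchromatin. Both enzymes also act as coactivators or corepressors of the glucocorticoid receptor. Human chromosome 19 holds long runs of C2H2 zinc finger genes, most of which carry a KRAB domain that recruits TRIM28 and, through it, H3K9 methylation and HP1.

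The 6 libraries held 9705957 to 11967904 counted fragments, and the most abundant transcript took 3.46% to 4.48% of a library. Levels are given as CPM, the count of a transcript relative to its library's size after upper-quartile scaling. A transcript is said to have risen or fallen where the adjusted p of edgeR's quasi-likelihood test (Benjamini-Hochberg over 10167 tested transcripts, the replicate number as a block) was at most 0.05. A value that stands alone before an adjusted p is a log2 fold change, of shGLP against shNS unless another group is named. The target itself was checked first. EHMT1 (NM_001354259, chr9:140513444-140764468 on GRCh37) stood at 3.74, 4.6 and 3.91 CPM in the shNS libraries and at 2.98, 1.66 and 3.22 CPM in the shGLP libraries, from 43, 50 and 46 counts against 29, 18 and 34 counts. The groups did not overlap, and the shGLP level was 79.7%, 36.2% and 82.3% of its same-numbered control, with a mean of 66.1% ± 25.9 (SD, n = 3 pairs). The exact two-sided permutation test gave p = 0.25 over the 3 pairs and p = 0.1 over 3 against 3, the smallest values each design allows, and the fit over all transcripts did not call it (log2 fold change -0.65, SE 0.205, adjusted p = 0.0923). Counts this low limit how precisely the knockdown could be measured from these libraries. The study itself describes efficient depletion of GLP, as protein by immunoblot and as mRNA by RT-qPCR, in the cells used for sequencing.

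Of the transcripts that encode HP1 proteins, CBX3 (HP1γ) and CBX5 (HP1α) were tested and not called (0.03, adjusted p = 0.983 for the more abundant CBX3 transcript and -0.06, adjusted p = 0.962 for CBX5). EHMT2, which encodes G9a, was not analysed here. Among 12 markers of B-cell precursors, 4 had at most 3 counts in each of the 6 libraries and CD79B, DNTT and CD22 were at 0 throughout. Of the markers of other cells, at most 3 counts were present in each of the 6 for 11 of 12 T-cell, 8 of 12 myeloid, 9 of 10 erythroid and 9 of 10 stromal and packaging-line genes. The exceptions called higher were LYZ and COL1A1, whose values stand with the results they touch, as do the counts of MPO, which was not called.

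GLP depletion changed 367 of 10167 transcripts, from 363 genes, which is 3.61% of those tested. Of these, 196 were higher (1.93%) and 171 lower (1.68%). Most changes were small, with a median absolute log2 fold change of 0.54 among the transcripts called. Only 80 (0.787%) changed by 2-fold or more, 44 upward and 36 downward. Each called transcript moved the same way in all 3 same-numbered pairs, as did 4056 of the 10167 transcripts tested. The 3 shGLP libraries lay wholly outside the 3 shNS libraries for 176 of the 196 higher and 164 of the 171 lower transcripts. Of all transcripts tested, 18.3% did so. These libraries also gave the calls, so both counts describe the called transcripts and add no support to the calls. Without the replicate block in the model the count was 171, and it was 233 without replicate 2, 97 without replicate 3, 243 without the first shGLP library and 237 without the third shNS library.

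**Figure D1:**
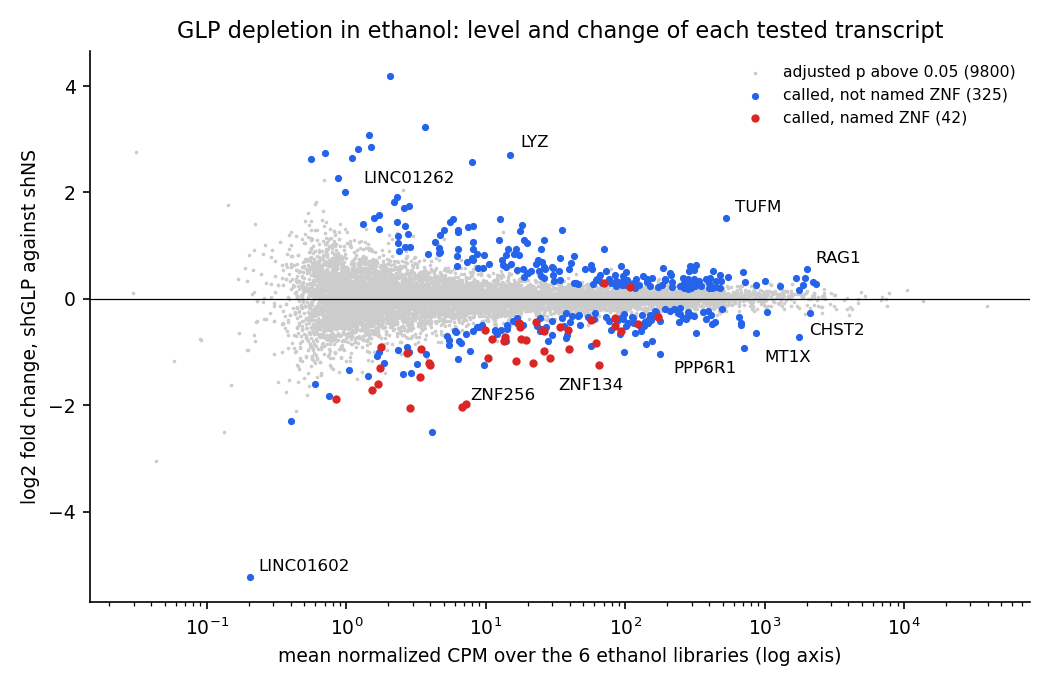
Log2 fold change of shGLP against shNS in ethanol (vertical axis) against the mean CPM of the 6 libraries (horizontal axis, log scale) for each of the 10167 tested transcripts; grey points were not called, blue points are the 325 called transcripts of other genes and red points the 42 called transcripts of genes named ZNF. All but 2 of the red points lie below the zero line, while LYZ (2.71) and TUFM (1.52) stand out above it; LINC01602 had 0 counts in the 3 shGLP libraries, so its fitted value has no defined size.

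Among the gene lists described, zinc finger genes held the most calls, nearly all of them falls. Of 242 tested genes named ZNF, 38 fell and 2 rose (ZNF280C, 0.3, and ZNF768, 0.21), where 1.75% of all 9391 tested genes fell. Most of these falls were on chromosome 19, where 32 of the 110 tested ZNF genes fell (29.1%), none rose, 81 had a negative log2 fold change and the median was -0.245. Elsewhere in the genome 6 of 130 ZNF genes fell (4.62%) and 2 rose, with a median of -0.0122. The other 570 tested genes of chromosome 19 gave 9 falls (1.58%) and 10 rises, with a median of 0.0291. Summed over the 242 ZNF genes, the level was 12464, 12293 and 12566 CPM in the shNS libraries and 11804, 11871 and 11907 CPM in the shGLP libraries, without overlap. The number that fell was 17 without replicate 3 and lay between 29 and 47 under each of the other alternatives run. Zinc finger genes are close copies of one another, so reads may be shared between neighbours, and the counting rule for such reads is not given in the sources used here.

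ZNF256, ZNF329 and ZNF134 lie near the end of the long arm of chromosome 19 and gave the largest falls among transcripts of at least 5 CPM. ZNF256 (NM_005773, chr19:58452201-58459074 on GRCh37) stood at 12.7, 10.5 and 9.52 CPM with shNS and at 3.8, 2.59 and 1.7 CPM with shGLP (log2 fold change -2.03, SE 0.206, adjusted p = 9.23e-07). ZNF329 (NM_024620, chr19:58637615-58666477) was at 13.4, 12.5 and 8.93 CPM with shNS against 3.59, 3.51 and 1.7 CPM with shGLP (log2 fold change -1.98, SE 0.178, adjusted p = 1.53e-07). Neither gene's groups overlapped, and each shGLP library was far below every control. ZNF134 (NM_003435, chr19:58125601-58136092) was the most abundant of the 3, at 94.6, 93.5 and 88.8 CPM in the controls and 39, 38.4 and 38.6 CPM after GLP depletion, and had the lowest adjusted p of the ZNF genes (log2 fold change -1.25, SE 0.0879, adjusted p = 3.08e-09). The lowest control was above the highest shGLP library for this gene too.

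The proximal promoters of these 3 genes are shown because these genes gave the largest falls. Each runs from 250 bases before to 50 bases after the transcript start (RefSeq, GRCh38.p14), written 5′ to 3′ on the gene's strand with CG dinucleotides in capitals. ZNF256 lies at chr19:57947657-57947956, minus strand, ZNF329 at chr19:58150740-58151039, minus strand and ZNF134 at chr19:57613992-57614291, plus strand.
ZNF256: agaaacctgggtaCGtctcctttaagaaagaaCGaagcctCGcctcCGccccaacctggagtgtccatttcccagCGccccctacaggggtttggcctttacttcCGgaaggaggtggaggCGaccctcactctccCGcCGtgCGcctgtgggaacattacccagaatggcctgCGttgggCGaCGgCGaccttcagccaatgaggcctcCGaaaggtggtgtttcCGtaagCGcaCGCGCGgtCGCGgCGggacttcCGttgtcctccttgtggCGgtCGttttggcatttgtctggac
ZNF329: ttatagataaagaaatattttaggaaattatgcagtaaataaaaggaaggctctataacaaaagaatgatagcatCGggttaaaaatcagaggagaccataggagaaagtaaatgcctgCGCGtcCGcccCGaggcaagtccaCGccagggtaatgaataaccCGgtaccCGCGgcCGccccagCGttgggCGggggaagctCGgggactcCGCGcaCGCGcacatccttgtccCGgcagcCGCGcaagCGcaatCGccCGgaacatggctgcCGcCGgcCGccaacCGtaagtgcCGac
ZNF134: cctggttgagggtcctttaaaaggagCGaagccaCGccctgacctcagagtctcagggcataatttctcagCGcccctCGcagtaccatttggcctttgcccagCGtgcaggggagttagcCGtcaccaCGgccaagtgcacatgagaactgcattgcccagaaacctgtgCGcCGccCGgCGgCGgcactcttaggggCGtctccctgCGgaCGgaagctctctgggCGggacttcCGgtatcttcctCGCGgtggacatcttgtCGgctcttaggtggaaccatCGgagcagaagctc
They hold 26, 28 and 21 CG dinucleotides. Over the ZNF genes that fell and have a promoter in the table (34 of 38) the median was 17, against 24 for the other tested ZNF genes (167 of 204) and 14 for all 27305 promoters. The median GC content was 56.8% for the ZNF genes that fell, 62.3% for the other ZNF genes and 58.3% for all promoters. At least 1 CG was present in 95.8% of all promoters. These figures describe the windows and were not tested against expression.

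The remaining large falls included zinc finger genes at other sites. ZNF10 (NM_015394, chr12:133707161-133736051), a KRAB repressor on chromosome 12, fell from 36, 28.1 and 28 CPM to 14.2, 14.3 and 11.1 CPM (log2 fold change -1.21, SE 0.102, adjusted p = 4.8e-08). ZFP28, a KRAB zinc finger gene in the same run as ZNF256, was at 16.1, 12.4 and 12.4 CPM in controls and 6.68, 6.84 and 3.88 CPM with shGLP (log2 fold change -1.24, SE 0.148, adjusted p = 9.11e-06). Also on chromosome 19, ZNF527 went from 21.1, 24.7 and 22.2 to 11.4, 10.5 and 8.42 CPM (log2 fold change -1.17, SE 0.116, adjusted p = 7.13e-07). The groups of all 3 genes were separate. ZNF585B, a neighbour of ZNF527, was at 41.6, 37 and 39.3 CPM with shNS and 19.6, 16.4 and 18.8 CPM with shGLP (log2 fold change -1.11, SE 0.123, adjusted p = 3.21e-06). For ZNF737 the levels were 39.1, 34.6 and 31 CPM against 19.7, 16.7 and 16.5 CPM (log2 fold change -0.98, SE 0.0996, adjusted p = 9.23e-07). ZNF730 held 14.2, 15.1 and 13.3 CPM in controls and 6.37, 6.19 and 7.1 CPM after depletion (log2 fold change -1.11, SE 0.176, adjusted p = 0.000259). No library of one group overlapped the other in these genes either.

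**Figure D2:**
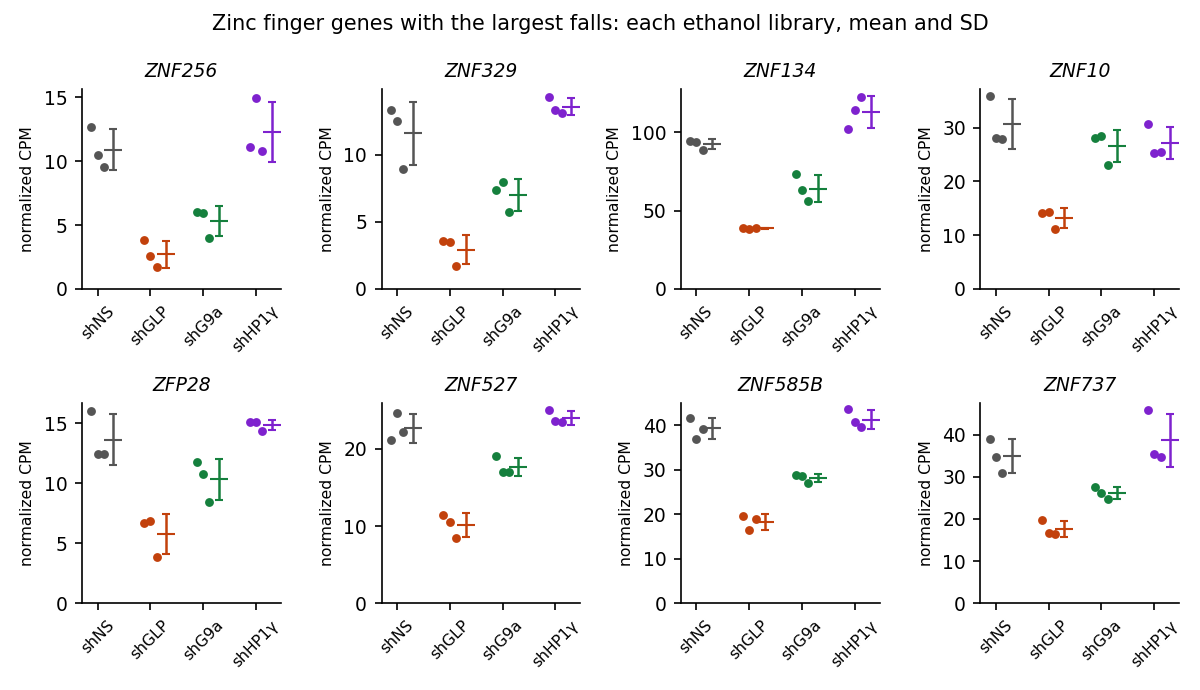
CPM (vertical axis, from 0) of 8 zinc finger genes in each library of the 4 ethanol groups; points are libraries and bars the group mean of 3. ZNF256, ZNF329, ZNF134, ZNF10, ZFP28, ZNF527, ZNF585B and ZNF737 were lowest in the 3 shGLP libraries, for example 38.7 ± 0.338 CPM for ZNF134 against 92.3 ± 3.1 (shNS), 63.9 ± 8.72 (shG9a) and 113 ± 10.3 (shHP1γ), mean ± SD.

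Grouped by position, the 113 tested zinc finger genes of chromosome 19 (named ZNF, ZFP, ZSCAN, ZIK or ZIM) formed 12 runs whose members lie less than 1 Mb apart on GRCh37. Falls were unevenly spread over them. In the run at chr19:36705504-37960177, 5 of 6 genes fell, with a median log2 fold change of -1.19. They were ZNF529 (-1.25), ZNF585B, ZNF875 (-1.21), ZNF527 and ZNF569 (-1.6); a gene antisense to ZNF529 overlaps it, and the reads of the pair cannot be told apart without strand. At chr19:22817126-24312770 it was 4 of 6 (ZNF730, ZNF675, ZNF681 and ZNF726, between -1.11 and -0.51; median over the run -0.943). At chr19:19779605-21610379, the run of ZNF737, it was 6 of 12 with a median of -0.692, the others called being ZNF14, ZNF93, ZNF626, ZNF66 and ZNF738. These run members, beyond the genes above, were named after their values were seen. The largest run, chr19:55987984-58992597, held ZNF256, ZNF329, ZNF134 and ZFP28 among 9 falls in 32 genes, and its median was -0.105, so most of its members were near 0. In the runs at chr19:44029649-45579736 and chr19:52074536-53999509, 3 of 9 and 4 of 15 fell. Of the 6 other runs, 2 gave 1 fall each and 4 gave none. Without the replicate block in the model the adjusted p was 0.0787 for ZNF280C and 0.29 for ZNF768. On leaving out 1 replicate or library at a time, the call (adjusted p in parentheses) was lost without replicate 3 for ZNF14 (0.0865) and ZNF66 (0.0855), and also for ZNF529 in 2 of 9 such fits (up to 0.0846), ZNF569 in 3 of 9 such fits (up to 0.435), ZNF726 in 3 of 9 such fits (up to 0.252), ZNF738 in 5 of 9 such fits (up to 0.301), ZNF280C in 4 of 9 such fits (up to 0.277) and ZNF768 in 9 of 9 such fits (up to 0.486).

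**Figure D3:**
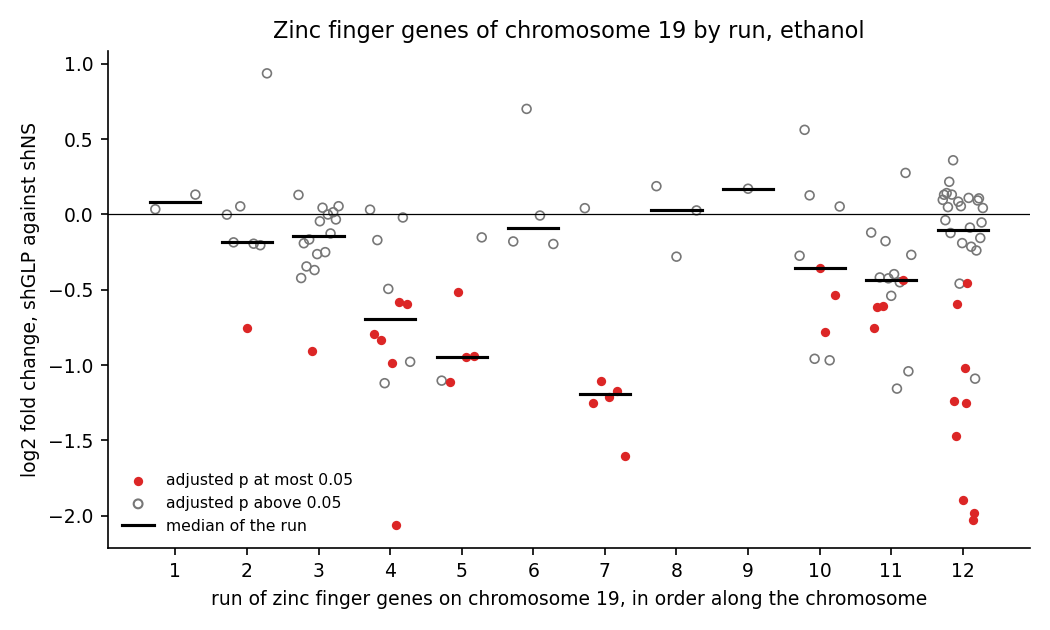
Log2 fold change of shGLP against shNS in ethanol for each of the 113 tested zinc finger genes of chromosome 19, by run in chromosomal order; filled points were called, open points were not, and the line gives the run's median. Runs 4, 5 and 7 have medians of -0.692, -0.943 and -1.19, while runs 1, 8 and 9 lie at or above 0.

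No tested H3K9 methylation gene passed the test. Of 18 tested writers and partners none was called, TRIM28, the KRAB corepressor, among them (0.09, adjusted p = 0.722), and the median was 0.0478. None of 9 tested H3K9 demethylases was called (median -0.0496). At an unadjusted p under 0.05, 1330 transcripts of the whole table differed, against 367 called. Gene groups best known for H3K9-dependent silencing were barely measurable in these cells: 4 of 48 germline and cancer-testis genes and 9 of 30 imprinted genes had enough counts to be tested, and none of them was called by edgeR. Of 6 tested protocadherin genes, which lie in clustered families of adhesion proteins, PCDHB13 fell (-0.86, adjusted p = 0.00937). With single replicates or libraries left out, calls were lost for PCDHB13 in 5 of 9 such fits (up to 0.219), with the adjusted p in parentheses.

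The rises included genes of myeloid cells and of the innate immune response of B cells. LYZ (NM_000239, chr12:69742161-69748014 on GRCh37), which encodes lysozyme, a bacteria-degrading enzyme abundant in myeloid cells, was at 5.65, 2.76 and 3.66 CPM with shNS and at 23, 31.2 and 23.3 CPM with shGLP (log2 fold change 2.71, SE 0.3, adjusted p = 3.21e-06). IRF8 (NM_002163), a transcription factor of B cells, monocytes and dendritic cells, was at 12.5, 9.57 and 9.01 CPM and 23.4, 28.5 and 23.6 CPM (log2 fold change 1.27, SE 0.161, adjusted p = 1.77e-05). IL1B, the cytokine interleukin-1β, stood at 16.8, 10 and 9.27 CPM against 29.7, 24.7 and 21.7 CPM (log2 fold change 1.1, SE 0.169, adjusted p = 0.000193). In each of these 3 genes the groups were apart. LYZ is itself 1 of 12 listed myeloid markers, of which only LYZ and MPO had enough counts to be tested. The summed level of these 2 was 4.05 to 7.73 CPM in the shNS libraries and 26.4 to 33.7 CPM in the shGLP libraries. Of the 12 listed, 7 had 0 counts in all 6 libraries. MPO had 24, 14 and 9 counts with shNS and 33, 27 and 40 with shGLP, and was not called. In ethanol, both LYZ and MPO were also called higher with shGLP than with shG9a and than with shHP1γ. Whether another cell type took part in the rise was not tested. Leave-one-out fits lost the call without replicate 3 for IL1B (0.0709), the adjusted p standing in parentheses.

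CD180 and LY86, which work as a pair, both rose. CD180 is a Toll-like receptor relative on B cells and LY86 (MD-1) is the secreted protein it needs to reach the surface. CD180 (NM_005582) was at 56, 45.8 and 44.4 CPM in the controls and 103, 91.7 and 85.8 CPM after GLP depletion (log2 fold change 0.94, SE 0.072, adjusted p = 1.13e-08). LY86 was at 19.1, 17.8 and 16.9 CPM and 29.9, 27.1 and 27.6 CPM (log2 fold change 0.66, SE 0.128, adjusted p = 0.00247), without overlap for either gene. With CD52, a small surface glycoprotein of lymphocytes (0.96, adjusted p = 0.000867), they were the 3 rises among 17 tested surface antigens of B-cell leukemia (17.6%, against 2.09% of all tested genes). CD52 was also higher with G9a depletion than with shNS (1.1, adjusted p = 0.00032). The direct contrast of GLP with G9a depletion did not call it (-0.14, adjusted p = 0.711). Chosen after their values were seen, TLR9, a DNA-sensing Toll-like receptor (0.69), the chemokine receptor CCR1 (0.66) and NCF1, a subunit of the phagocyte NADPH oxidase (1.07), also rose. NCF1 and its copies NCF1B (1.52) and NCF1C (1.32) are near-identical, and how reads were divided among the 3 is uncertain. Without the replicate block in the model the adjusted p was 0.223 for CD52, 0.153 for TLR9, 0.0866 for CCR1 and 0.0927 for NCF1C. On leaving out 1 replicate or library at a time, the call (adjusted p in parentheses) was lost without replicate 3 for LY86 (0.133) and CD52 (0.0532), without replicate 2 for NCF1 (0.0521), and also for TLR9 in 8 of 9 such fits (up to 0.532), CCR1 in 3 of 9 such fits (up to 0.247), NCF1B in 5 of 9 such fits (up to 0.368) and NCF1C in 8 of 9 such fits (up to 0.247).

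**Figure D4:**
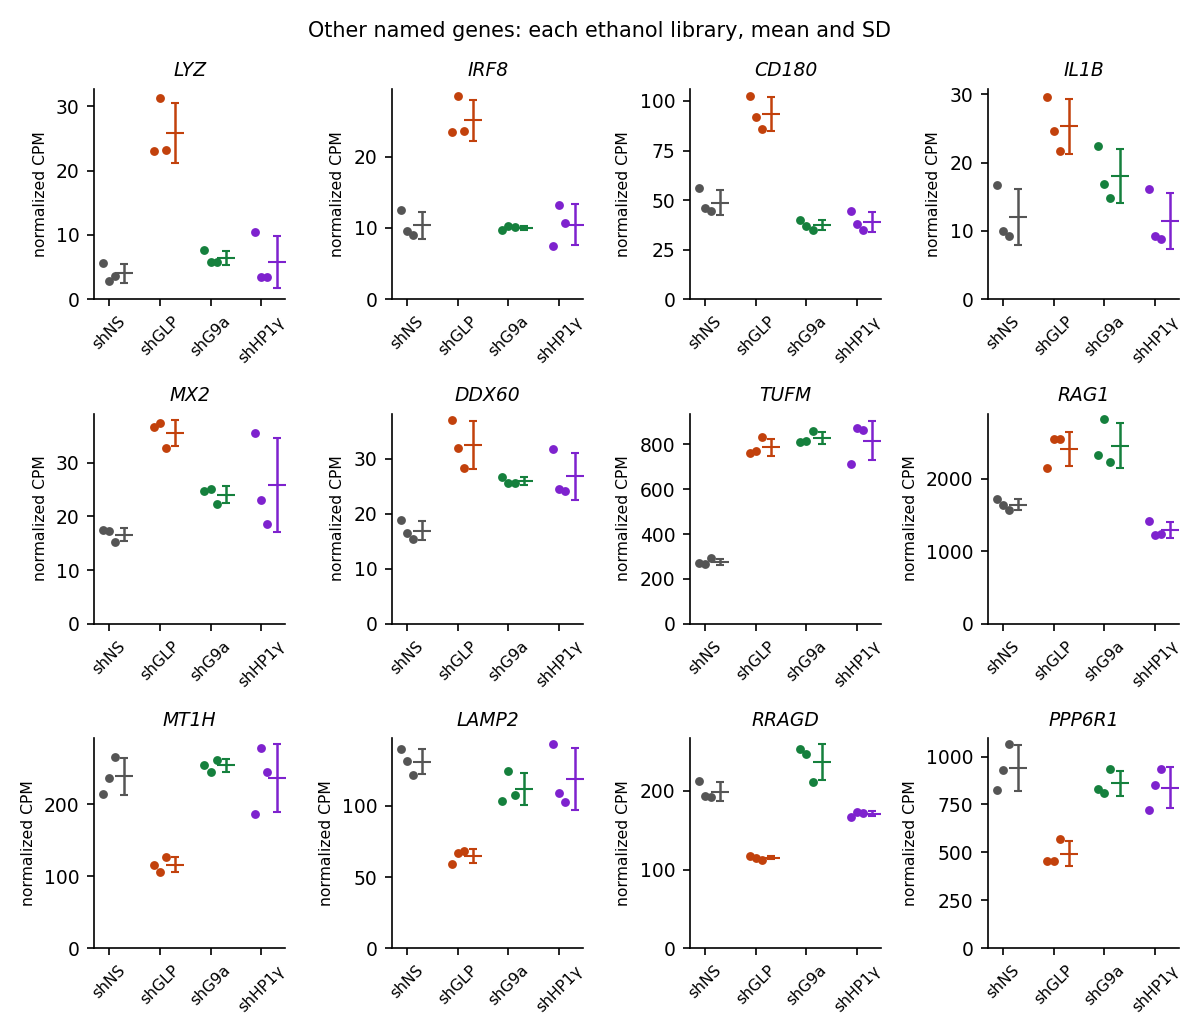
CPM (vertical axis, from 0) of 12 other called genes in each library of the 4 ethanol groups, with points for libraries and bars for the mean of 3. LYZ, IRF8, CD180, IL1B, MX2, DDX60, TUFM and RAG1 were higher in the shGLP than in the shNS libraries, and MT1H, LAMP2, RRAGD and PPP6R1 lower, with no overlap in any of the 12.

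Interferon-stimulated genes, which encode antiviral effectors, showed 5 rises and no fall among 28 tested (17.9% higher, against 2.09% of all 9391 tested genes), while the median over the list was 0.066, so most members were near 0. MX2, a dynamin-like antiviral GTPase, was at 17.4, 17.2 and 15.1 CPM with shNS and 36.6, 37.3 and 32.8 CPM with shGLP (log2 fold change 1.1, SE 0.172, adjusted p = 0.000215). DDX60, a helicase of the RNA-sensing pathway, was at 18.9, 16.6 and 15.4 CPM against 37.2, 32 and 28.4 CPM (log2 fold change 0.94, SE 0.0981, adjusted p = 1.43e-06). The groups were separate for both. OAS3, an oligoadenylate synthetase, rose to a lesser degree (0.63, adjusted p = 0.000815), as did the guanylate-binding protein GBP1 (0.52, adjusted p = 0.00185). The fifth was LGALS3BP, a secreted galectin-binding glycoprotein (0.49, adjusted p = 0.000466), named after its values were seen. The promoters of DDX60 (chr4:168318703-168319002, minus strand) and OAS3 (chr12:112938224-112938523, plus strand) are shown with the core of the interferon-response element, searched as GAAA, any 2 bases and GAAA on both strands, in capitals (GRCh38.p14).
DDX60: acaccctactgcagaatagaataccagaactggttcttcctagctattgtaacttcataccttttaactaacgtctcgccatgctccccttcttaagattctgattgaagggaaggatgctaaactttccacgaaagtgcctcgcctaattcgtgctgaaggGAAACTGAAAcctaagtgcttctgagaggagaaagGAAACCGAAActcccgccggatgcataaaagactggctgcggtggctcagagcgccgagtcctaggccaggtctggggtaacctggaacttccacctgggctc
OAS3: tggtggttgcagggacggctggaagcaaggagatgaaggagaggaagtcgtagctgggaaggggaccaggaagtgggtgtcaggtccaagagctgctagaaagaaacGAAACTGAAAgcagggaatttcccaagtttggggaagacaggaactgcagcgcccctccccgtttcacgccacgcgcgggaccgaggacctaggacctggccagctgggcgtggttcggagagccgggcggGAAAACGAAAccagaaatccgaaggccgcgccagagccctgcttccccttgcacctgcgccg
Each held 2 matches, and 3.65% of the 27305 promoters held at least 1. GBP1 had 1 match, and IRF8 had none in this window. With the replicate block left out of the fit, the adjusted p rose to 0.0617 for GBP1. With single replicates or libraries left out, calls were lost without replicate 3 for GBP1 (0.108) and LGALS3BP (0.0992), with the adjusted p in parentheses.

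The falls included genes for metal-binding and lysosomal proteins. MT1H, a metallothionein that binds zinc and copper, was at 215, 236 and 266 CPM with shNS and 116, 106 and 126 CPM with shGLP (log2 fold change -1.04, SE 0.117, adjusted p = 3.81e-06). The other 2 metallothioneins tested, chosen after their values were seen, fell too. MT1X went from 1002, 1066 and 1093 to 636, 726 and 675 CPM (log2 fold change -0.63, SE 0.0577, adjusted p = 1.81e-07) and MT2A from 139.7, 138 and 155 to 90.3, 91.3 and 93.5 CPM (log2 fold change -0.65, SE 0.0875, adjusted p = 3.73e-05). All 3 genes had separate groups, although members of this family are alike in sequence and may share reads. The MT1H promoter (chr16:56669564-56669863, plus strand, GRCh38.p14) is shown with TGCACNC, a form of the metal-response element core, in capitals on both strands.
MT1H: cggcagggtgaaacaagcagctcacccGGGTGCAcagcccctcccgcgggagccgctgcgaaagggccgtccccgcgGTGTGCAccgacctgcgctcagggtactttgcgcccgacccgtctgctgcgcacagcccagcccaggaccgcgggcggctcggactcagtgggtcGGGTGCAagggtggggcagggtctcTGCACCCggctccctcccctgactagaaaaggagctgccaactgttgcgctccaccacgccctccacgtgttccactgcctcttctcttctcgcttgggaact
It held 4 matches of TGCACNC and 4 of TGCGCNC, and MT2A held 6 and 2. Among all promoters 11.9% held TGCACNC and 20% held TGCGCNC.

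RRAGD (NM_021244), a Rag GTPase that brings mTORC1 to the lysosome in response to amino acids, was at 213, 193 and 192 CPM in the controls and 117, 115 and 113 CPM in the shGLP libraries (log2 fold change -0.79, SE 0.0593, adjusted p = 8.74e-09). LAMP2 encodes a lysosomal membrane protein, and its transcripts were tested separately. Transcript NM_013995 fell from 139.9, 132 and 122 to 59.4, 67.3 and 68.2 CPM (log2 fold change -1.01, SE 0.121, adjusted p = 9.83e-06), while NM_002294 did not pass the test (0.1, adjusted p = 0.862). The difference between the 2 transcripts was not tested, and reads they share could have been divided between them in counting. LAMTOR5, a subunit of the Ragulator complex that anchors Rag GTPases, and LAPTM5, a lysosomal protein of blood cells, both named after their values were seen, had log2 fold changes of -0.53 and -0.28, and LAMP1, another lysosomal membrane protein, one of 0.21. Calls lost when the replicate block was left out had an adjusted p of 0.136 for LAPTM5 and 0.392 for LAMP1. Leave-one-out fits lost the call for LAPTM5 in 5 of 9 such fits (up to 0.367) and LAMP1 in 4 of 9 such fits (up to 0.283), the adjusted p standing in parentheses.

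Several single genes stood out by their precision. TUFM (NM_003321), the elongation factor Tu of mitochondrial translation, had the lowest adjusted p of the comparison, at 269.5, 265 and 291 CPM with shNS and 762, 769.6 and 831 CPM with shGLP (log2 fold change 1.52, SE 0.0607, adjusted p = 6.5e-14). Its level in the other depletions was of the same order (809, 816 and 859.5 CPM with shG9a and 715, 872 and 865 CPM with shHP1γ), and the direct contrasts of GLP with G9a (-0.07, adjusted p = 0.566) and with HP1γ depletion (-0.05, adjusted p = 0.776) did not call it, with SEs of 0.0588 and 0.0589. For TUFM the shNS group was the one that stood apart, so a rise with depletion and a low level particular to the shNS cells cannot be told apart. PPP6R1, a regulatory subunit of protein phosphatase 6, was at 826, 929 and 1065 CPM and 457, 454 and 571 CPM (log2 fold change -0.93, SE 0.0613, adjusted p = 1.37e-09). CHST2, a sulfotransferase acting on N-acetylglucosamine, was at 2009, 2279.8 and 2288 CPM and 1326, 1329.8 and 1343 CPM (log2 fold change -0.72, SE 0.0581, adjusted p = 2.87e-08). Both fell without overlap, and both were also lower than in the other depletions.

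The largest rises by fold also held genes of low level. LINC01262, a noncoding RNA, was at 2.61, 2.03 and 2.21 CPM with shNS and 15.2, 14.8 and 10.8 CPM with shGLP (log2 fold change 2.57, SE 0.311, adjusted p = 1.03e-05). CYTIP, a leukocyte protein that binds the ARF activators of the cytohesin family, was at 5.21, 4.42 and 3.83 CPM and 13.6, 10.9 and 10.4 CPM (log2 fold change 1.38, SE 0.175, adjusted p = 1.9e-05). Neither gene's groups overlapped. The voltage-gated potassium channel gene KCNA6 (1.44, adjusted p = 4.11e-05), CCDC88B (1.5, adjusted p = 8.04e-05), the mucin gene MUC19 (1.34, adjusted p = 0.000765), the AP-2 family gene TFAP2C (1.3, adjusted p = 0.000361), the olfactory receptor gene OR13A1 (1.39, adjusted p = 0.00577), LOC401357 (1.29, adjusted p = 0.00191), LINC01559 (1.29, adjusted p = 0.000844) and the bHLH repressor gene BHLHE40 (1.49, adjusted p = 0.039) made up the rest of the 12 largest among transcripts of at least 5 CPM. BHLHE40 was at 13.2, 33.7 and 10.4 CPM with shGLP. It was also higher with G9a depletion than with shNS (1.6, adjusted p = 0.0257). CCDC88B was also higher with HP1γ depletion than with shNS (1.42, adjusted p = 0.000384). KCNA6 and CYTIP were called higher with shGLP than with either other depletion. LINC00494 was the noncoding RNA among the largest falls (-1.14, adjusted p = 0.000963). Without the replicate block in the model the adjusted p was 0.122 for TFAP2C, 0.0528 for OR13A1, 0.137 for LOC401357, 0.104 for LINC01559 and 0.207 for BHLHE40. On leaving out 1 replicate or library at a time, the call (adjusted p in parentheses) was lost without replicate 3 for LOC401357 (0.0559) and LINC01559 (0.0507), and also for OR13A1 in 4 of 9 such fits (up to 0.17) and BHLHE40 in 9 of 9 such fits (up to 0.311).

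In the B-cell programme every call in the lists of transcription factors, V(D)J recombination and pre-B-cell receptor genes was upward. Of 19 tested B-lineage transcription factors, IRF8, POU2AF1 and ID3 rose (15.8%, against 2.09% of all tested genes). POU2AF1, a coactivator of octamer factors, was at 244, 225 and 239.6 CPM and 360.1, 346 and 318 CPM (log2 fold change 0.53, SE 0.0694, adjusted p = 2.71e-05), and ID3, an inhibitor of E proteins, at 302, 296 and 299.6 CPM and 384, 378 and 369.5 CPM (log2 fold change 0.33, SE 0.0661, adjusted p = 0.00281). RAG1, the catalytic subunit of the V(D)J recombinase, was among the most abundant transcripts to rise, at 1721, 1641 and 1568 CPM in controls and 2142, 2553 and 2542 CPM after depletion (log2 fold change 0.56, SE 0.105, adjusted p = 0.00176). The 3 genes had separate groups. XRCC5, the Ku80 end-joining subunit, was the other of 6 V(D)J genes called (33.3%), with a smaller value (0.17, adjusted p = 0.0484). In the pre-B-cell receptor list 2 of 13 rose (15.4%), VPREB3 (0.54, adjusted p = 0.0448) and the adapter PIK3AP1 (0.28, adjusted p = 0.0431). Of 3 MHC class II genes and 9 BCL2 family genes tested, none was called. With the replicate block left out of the fit, the adjusted p rose to 0.233 for XRCC5, 0.548 for VPREB3 and 0.256 for PIK3AP1. With single replicates or libraries left out, calls were lost without replicate 3 for ID3 (0.142) and RAG1 (0.269), and also for XRCC5 in 9 of 9 such fits (up to 0.607), VPREB3 in 8 of 9 such fits (up to 0.421) and PIK3AP1 in 8 of 9 such fits (up to 0.574), with the adjusted p in parentheses.

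In the absence of hormone, 4 of 32 tested glucocorticoid receptor and hormone-response genes were called (12.5%, against 3.83% of all tested genes). ID3 rose, and BTG1, SOCS2 and ERRFI1 fell. BTG1, an antiproliferative gene, was at 501, 481 and 478 CPM with shNS and 339, 372 and 342 CPM with shGLP (log2 fold change -0.47, SE 0.0819, adjusted p = 0.000789). SOCS2, a feedback inhibitor of cytokine signalling, had a log2 fold change of -0.66, adjusted p = 0.000867, and ERRFI1, an inhibitor of EGF receptor signalling, -0.84, adjusted p = 0.00238. The groups of these 3 genes did not overlap, and the median over the list was 0.0268. Among 19 immediate early genes DUSP6 (0.3, adjusted p = 0.0415, and not called with TMM or DESeq2 size factors) rose and PHLDA1 (-0.68, adjusted p = 0.00371) fell, and IL1B was the single call among 10 NF-κB genes. Calls lost when the replicate block was left out had an adjusted p of 0.403 for DUSP6 and 0.2 for PHLDA1. Leave-one-out fits lost the call without replicate 3 for BTG1 (0.115), SOCS2 (0.14) and ERRFI1 (0.0888), without replicate 2 for PHLDA1 (0.0789), and also for DUSP6 in 9 of 9 such fits (up to 0.324), the adjusted p standing in parentheses.

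Against shNS in ethanol, amino acid response and tRNA synthetase genes had mostly negative values and mitosis genes mostly positive ones. In the amino acid response and tRNA synthetase list 27 of 30 genes had negative values (90.0%, against 46.8% of all tested genes; median -0.185) and 3 fell (10.0%, against 1.75%). PSPH, the last enzyme of serine synthesis, was at 173, 146 and 162 CPM and 127, 114 and 115 CPM (log2 fold change -0.44, SE 0.102, adjusted p = 0.0114). SESN2, a stress-induced inhibitor of mTORC1, had a log2 fold change of -0.46, adjusted p = 0.000861, and was also the single call among 16 p53 targets. The third was NR_034072, a noncoding transcript record of the seryl-tRNA synthetase gene SARS (-0.67, adjusted p = 9.87e-07). INHBE, a target of this response chosen after its values were seen, was at -0.79. The median of the amino acid list was -0.00244 in the dex libraries. In ethanol it was 0.0111 against G9a depletion and -0.138 against HP1γ depletion. The summed level of the list was 11558 to 12448 CPM with shNS and 10575 to 10981 with shGLP. It was 10658 to 11101 CPM with shG9a and 9333 to 12710 with shHP1γ. In the mitosis list 27 of 30 genes had positive values (90.0%, against 53.2% of all tested genes; median 0.229) and 4 rose (13.3%, against 2.09%), the kinase gene PLK1 (0.52, adjusted p = 0.000466), MKI67 (0.45, adjusted p = 0.0467), CDC20, an activator of the anaphase-promoting complex (0.4, adjusted p = 0.0035), and TOP2A, topoisomerase II (0.32, adjusted p = 0.0104). The median of the mitosis list was 0.23 in dex and 0.266 against G9a depletion in ethanol. Against HP1γ depletion it was 0.0884, and no member was called. CDC20 was also higher with HP1γ depletion than with shNS (0.36, adjusted p = 0.0145). None of 28 replication genes was called. Without the replicate block in the model the adjusted p was 0.223 for INHBE, 0.492 for PLK1, 0.154 for MKI67, 0.661 for CDC20 and 0.432 for TOP2A. On leaving out 1 replicate or library at a time, the call (adjusted p in parentheses) was lost without replicate 3 for SESN2 (0.0897), and also for PSPH in 6 of 9 such fits (up to 0.392), INHBE in 7 of 9 such fits (up to 0.539), MKI67 in 9 of 9 such fits (up to 0.332), CDC20 in 3 of 9 such fits (up to 0.116) and TOP2A in 4 of 9 such fits (up to 0.16).

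Of 59 histone genes 3 rose (5.08%, against 2.09% of all tested genes). They were the linker histones H1FX (0.32, adjusted p = 0.0035) and H1F0 (0.83, adjusted p = 0.0159) and the variant gene H2AFZ (0.38, adjusted p = 0.0435). The list's median of 0.326 came with -0.0898 in the dex libraries. HSP90B1, a chaperone of the endoplasmic reticulum, was the single rise among 17 genes of the unfolded protein response (0.25, adjusted p = 0.0295). Of 17 cell migration genes 2 rose (11.8%, against 2.09% of all tested genes). They were the sphingosine-1-phosphate receptor S1PR2 (0.83, adjusted p = 0.00135) and RAC2 (0.27, adjusted p = 0.0241). The snoRNA host genes GAS5 (-0.34, adjusted p = 0.00117) and SNHG6 (-0.43, adjusted p = 0.000361) fell, out of 18 tested (11.1%, against 1.75% of all tested genes). Among 579 LINC and antisense RNAs, 9 rose (1.55%) and 12 fell (2.07%), against 2.09% and 1.75% of all tested genes. COL1A1, a fibroblast collagen, was the only stromal or packaging-line marker tested, and it rose (0.9, adjusted p = 0.0261). It was at 1.56 to 1.79 CPM with shNS and 1.85 to 4.21 CPM with shGLP. In the T-cell list ZAP70 was tested and not called (0.46, adjusted p = 0.0608). Of 72 ribosomal protein genes 1 was higher. None was called by edgeR among 34 MYC and nucleolar, 20 sterol, 20 glycolysis and 42 respiratory chain genes, whose medians lay between -0.00444 and 0.0971. Positive values were held by 27 of the 34 MYC and nucleolar genes and 15 of the 20 glycolysis genes. With the replicate block left out of the fit, the adjusted p rose to 0.353 for H1FX, 0.32 for H1F0, 0.183 for H2AFZ, 0.427 for HSP90B1, 0.0746 for S1PR2, 0.181 for RAC2, 0.24 for GAS5 and 0.191 for COL1A1. With single replicates or libraries left out, calls were lost without replicate 3 for H1FX (0.0732), S1PR2 (0.0894), GAS5 (0.0869) and SNHG6 (0.0594), and also for H1F0 in 5 of 9 such fits (up to 0.343), H2AFZ in 8 of 9 such fits (up to 0.444), HSP90B1 in 7 of 9 such fits (up to 0.435), RAC2 in 9 of 9 such fits (up to 0.272) and COL1A1 in 6 of 9 such fits (up to 0.497), with the adjusted p in parentheses.

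Whether the changes were the same with hormone was asked in the dex libraries, which come from the same depleted and control populations but share no library with the ethanol comparison. There 587 transcripts were called for shGLP against shNS (5.77%), 3.31% of all transcripts being higher and 2.46% lower, or 269 without the replicate block and 167 without replicate 3. Of the 196 transcripts higher in ethanol, 194 were higher in dex by sign and 154 were called higher. For the 171 lower transcripts, 166 were lower in dex by sign and 113 called lower, and none of either set was called the opposite way. The medians were 0.522 in ethanol and 0.529 in dex for the first set and -0.58 and -0.481 for the second. In dex 31 of the 110 chromosome 19 ZNF genes fell, with a median of -0.26. LYZ (3.22, adjusted p = 5.94e-07), ZNF256 (-2.23, adjusted p = 5.94e-07) and RRAGD (-0.72, adjusted p = 2.71e-08) changed in dex in the same direction.

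**Figure D5:**
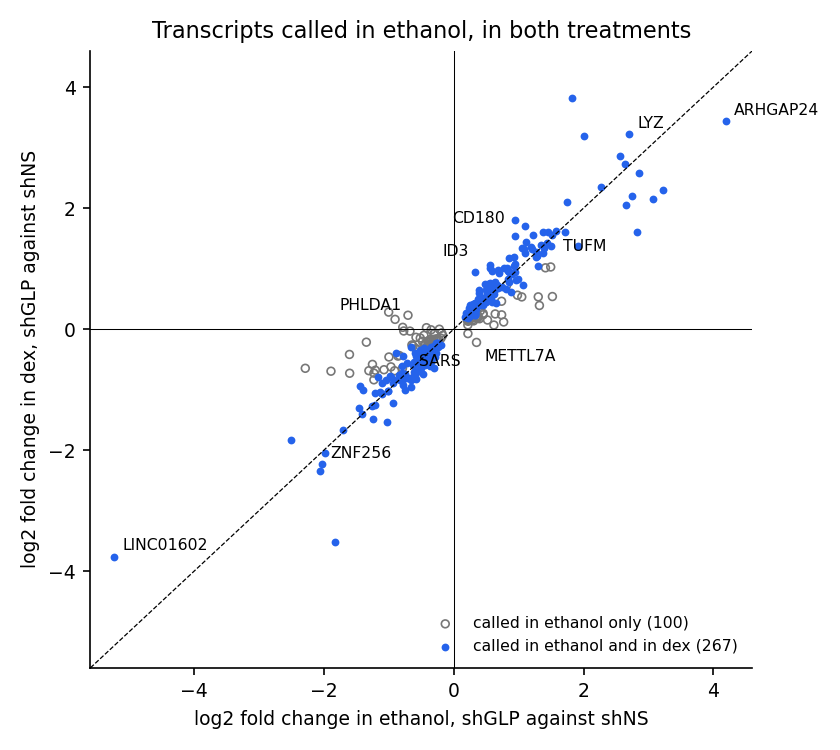
Log2 fold change of shGLP against shNS in dex (vertical axis) against that in ethanol (horizontal axis) for the 367 transcripts called in ethanol; filled points (267) were called in both, open points (100) in ethanol and not in dex, and the dashed line marks equal values. Nearly all points lie in the lower left and upper right quadrants; LINC01602 had 0 counts in the 3 shGLP libraries in ethanol, so its place has no defined size.

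The interaction test, which asks whether the effect of GLP depletion differed between dex and ethanol, called 12 transcripts (0.118%), 2 higher and 10 lower, with 1 call when the replicate block was left out, 23 by DESeq2 and 0 to 10 when single replicates or libraries were. Of the 12, 3 were among the transcripts that rose in ethanol. CD180 had a log2 fold change of 0.94 in ethanol and 1.54 in dex (difference 0.6, adjusted p = 0.0122). ID3 likewise was at 0.33 and 0.94 (difference 0.6, adjusted p = 0.00602). METTL7A, named after its values were seen, was at 0.35 in ethanol and -0.22 in dex (difference -0.57, adjusted p = 0.0228). Of the 20 alternatives, the interaction call was lost in 11 for METTL7A, 9 for CD180 and 3 for ID3, each time including the fit without the replicate block. The ethanol call of METTL7A was also lost without the replicate block (adjusted p = 0.426) and in 5 of 9 fits that left out 1 replicate or library (up to 0.151). None of the 171 lower transcripts was called in the edgeR interaction test, in which 395 transcripts of the table had an unadjusted p under 0.05.

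GLP depletion was last set directly against depletion of its partner G9a and of HP1γ, in ethanol and without the shNS libraries. Against G9a depletion 633 transcripts differed (6.23%), 390 higher (3.84%) and 243 lower (2.39%) with shGLP, and 254 without the replicate block. This split depended on the scaling: 61.6% of calls were higher with upper-quartile factors, 47.9% with TMM and 48.5% with DESeq2 size factors. The count was 307 without replicate 2, 133 without replicate 3, 373 without the first shGLP library and 389 without the third. Against HP1γ depletion 427 differed (4.2%), 192 higher (1.89%) and 235 lower (2.31%), and 199 without the replicate block. Without replicate 1, 2 or 3 it was 276, 270 or 117, and 283 or 256 without the first or the third shGLP library. These contrasts, and those of either depletion with shNS, reuse libraries of the GLP comparison, so their values are set side by side.

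The zinc finger genes were lower with shGLP in both direct contrasts. On chromosome 19, 25 of 110 ZNF genes were lower than with shG9a and 39 lower than with shHP1γ, where 2.39% and 2.31% of all transcripts were lower, and none was higher in either. Against the shared shNS libraries, 9 of the 110 fell and 1 rose with G9a depletion (median -0.102; 2.13% and 1.59% of all transcripts), and none fell and 4 rose with HP1γ depletion (median 0.0746; 1.29% and 1.62% of all). ZNF134 was at 73.1, 62.8 and 55.8 CPM with shG9a and 102, 114 and 122 CPM with shHP1γ, both above the shGLP libraries (-0.72, adjusted p = 1.18e-05 and -1.55, adjusted p = 1.05e-10 for the direct differences). ZNF256 was at 6.05, 5.94 and 3.97 CPM and 11.1, 15 and 10.8 CPM (-0.98, adjusted p = 0.00793 and -2.2, adjusted p = 1.58e-07). The shG9a libraries lay between the shGLP and the shHP1γ libraries for both genes. ZNF626, among the 5 lowest p-values of the contrast with HP1γ, was at 4.78, 4.97 and 4.08 CPM with shNS, 1.13, 1.29 and 0.852 with shGLP, 3.32, 2.32 and 1.74 with shG9a and 9.67, 9.72 and 9.09 with shHP1γ, the last above the controls.

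Several other genes differed from both depletions. CD180 was at 40, 36.8 and 35 CPM with shG9a and 44.4, 37.7 and 34.9 CPM with shHP1γ, below every shGLP library (1.32, adjusted p = 5.98e-11 and 1.26, adjusted p = 1.05e-10). IRF8 (1.32, adjusted p = 1.09e-05 and 1.26, adjusted p = 1.6e-05) and LYZ (2.02, adjusted p = 5.25e-05 and 2.22, adjusted p = 1.99e-05) were likewise higher with shGLP. RRAGD (-1.04, adjusted p = 5.98e-11 and -0.57, adjusted p = 8.84e-07), MT1H (-1.13, adjusted p = 9.18e-07 and -1.02, adjusted p = 3.38e-06), PPP6R1 (-0.81, adjusted p = 8.03e-09 and -0.76, adjusted p = 1.59e-08) and CHST2 (-0.49, adjusted p = 6.29e-06 and -0.73, adjusted p = 1.49e-08) were lower with shGLP than with either. RAG1 separated from HP1γ depletion (0.91, adjusted p = 4.23e-06) and was not called against G9a depletion (-0.02, adjusted p = 0.941, SE 0.105). DDX60 was called in neither (0.31, adjusted p = 0.0511 and 0.28, adjusted p = 0.119), so no difference from the other depletions was shown. Nor was ID3 (-0.09, adjusted p = 0.509 and 0.006, adjusted p = 0.981) or GBP1 (-0.04, adjusted p = 0.89 and 0.1, adjusted p = 0.734). DDX60, ID3 and GBP1 were each called higher with G9a and with HP1γ depletion than with shNS. For them, as for TUFM, a rise with depletion and a low level particular to the shNS cells cannot be told apart. The Wnt inhibitor gene APCDD1 (0.99, adjusted p = 7.05e-10), CNOT11, a subunit of the deadenylase complex CCR4-NOT (0.95, adjusted p = 5.98e-11), and the cold-induced RNA-binding protein gene RBM3 (0.68, adjusted p = 9.87e-10) were, with CD180 and RRAGD, the 5 lowest p-values against G9a depletion; CNOT11 and RBM3 did not pass the test against shNS with GLP depletion (0.08 and 0.16). LINC01694 was lower than with HP1γ depletion (-1.3, adjusted p = 1.09e-09). LINC01602 had 5, 3 and 6 counts in the shNS libraries, 0 in each shGLP library and 68, 81 and 81 in the shHP1γ libraries, and no fold is given for it.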

How the data were processed

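Paired-end 75-base reads from the 24 libraries were trimmed and mapped by the authors with HISAT2 to the human genome (hg19, GRCh37) and counted over RefSeq transcripts with the GenomicAlignments package. The deposited table, though named for CPM, holds whole-number counts for 64519 accessions, 40144 of them at 0 in every library; the strand setting and the rule for reads shared by transcripts are not given in the sources used here. A further deposited table holds the authors' own log2 fold changes and adjusted p-values, none of which was used; it supplied symbols for 9872 accessions, RefSeq annotation supplied 53873 and 774 stayed unnamed.

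Transcripts with over 1 CPM in at least 2 libraries (10167, from 9391 genes) were tested with edgeR 4.0.16 (R 4.3.3) by its quasi-likelihood test, with upper-quartile factors, 8 groups and the replicate number as a block over all 24 libraries, and Benjamini-Hochberg adjustment; a transcript was called at 0.05 or below after adjustment, whatever its fold change. Per the labels the replicates were made on different days; that the same number marks the same day in every group is not stated, and the block stood in for the authors' batch correction. The deviations of same-numbered shGLP and shNS libraries from their group means correlated at 0.147, 0.079 and 0.327, and shGLP replicate 2 correlated more with shNS replicate 1 (0.122) than with its own number. Replicates differed by more than counting noise (chi-square per degree of freedom 3.43 to 11.6). The fit was run on 3 simulated tables, each with 200 changed transcripts and no replicate effect. It recovered 61.8% of the changes, and 45.6% of those at a log2 change of 0.585. Of its calls, 5.84% were false. Where a gene had several transcripts, the most abundant stood for it in list counts.

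The comparison, the lists and the alternatives were chosen with earlier results of these data known; the pattern for ZNF names was narrowed after the files were read so as to leave out antisense genes. Named were the depleted and HP1 genes, the 12 largest rises and falls among called transcripts of at least 5 CPM, and called list members. Also named were the transcripts of lowest p-value in ethanol, and the 5 of lowest p-value in the interaction and in each direct contrast. Genes outside this rule are marked in the text. Gene positions are GENCODE's on GRCh37 and promoters are RefSeq's on GRCh38.p14. Alternatives used TMM and DESeq2 factors, DESeq2 1.42.0, limma 3.58.1 on log2(CPM + 1), other filters, no block, 1 unwanted-variation factor, the compared groups alone, counts summed per gene and each replicate or library left out.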

Additional observations from a re-analysis of the deposited data

Results flagged for a closer look

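The effect of GLP depletion differed between dex and ethanol, by the edgeR interaction test, for 12 transcripts, each given here with the log2 difference (dex minus ethanol). The difference was positive for CD180 (0.60, from 0.94 in ethanol to 1.54 in dex) and ID3 (0.60, from 0.33 in ethanol to 0.94 in dex). Both genes had lower mean levels in dex than in ethanol with shNS and with shGLP. CD180 went from 48.7 to 28.4 CPM with shNS and from 93.35 to 82.6 CPM with shGLP. ID3 went from 299 to 118 CPM with shNS and from 377 to 226 CPM with shGLP. The difference was negative for RASSF4 (-1.58; 0.73 in ethanol and -0.85 in dex), BTNL9 (-0.87; 0.21 in ethanol and -0.66 in dex), C1orf186 (-0.87; -0.03 in ethanol and -0.89 in dex), CYTH3 (-0.85; -0.25 in ethanol and -1.1 in dex), CDC42EP2 (-0.81; 0.08 in ethanol and -0.73 in dex), DISP3 (-0.76; 0.23 in ethanol and -0.53 in dex), FAM53B (-0.61; 0.23 in ethanol and -0.38 in dex), METTL7A (-0.57; 0.35 in ethanol and -0.22 in dex), MCAM (-0.43; 0.05 in ethanol and -0.38 in dex) and BOD1L1 (-0.36; 0.03 in ethanol and -0.34 in dex). Of these 10, METTL7A was called in ethanol alone, and the other 9 were called lower in dex and not called in ethanol. Mean levels of BTNL9, C1orf186, CYTH3, CDC42EP2, DISP3, FAM53B and BOD1L1 were higher in dex than in ethanol with shNS and with shGLP. Groups of 3 libraries were not examined for a single library far from the rest.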

How the results depend on the processing

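Under the 20 alternatives, the 123 named transcripts called in ethanol gave 2431 values, of which 2040 kept direction and call, 391 lost the call and none reversed; 47 of the 123 were called throughout. Leaving out the replicate block, the pairing by number, moved the counts from 367 to 171 (GLP depletion in ethanol), 587 to 269 (in dex), 12 to 1 (interaction), 633 to 254 (against G9a) and 427 to 199 (against HP1γ). With the replicate block in a fit of only the groups compared, they were 848, 1295, 96, 1726 and 155, and without it in such a fit the interaction gave 2, the G9a contrast 411 and the HP1γ contrast 86. The interaction count was also 23 with no filter on low counts, 23 by DESeq2 and 7 with an unwanted-variation factor. Leaving out 1 replicate or library gave 97 to 275 calls in ethanol, 0 to 10 for the interaction, 167 to 577 in dex, 133 to 596 against G9a and 117 to 390 against HP1γ, and an EHMT1 level of 57.9% to 81.0% of control; the cause was not tested beyond the smaller number of libraries. The share of calls in ethanol that were higher, 53.4%, was 42.0% with no filter and 43.3% without the block. Of the calls against G9a depletion, 61.6% were higher, and 48.3% with no filter, 48.8% by DESeq2 and 51.6% at a mean of 5 CPM or more; against HP1γ depletion it was 45%, and 32.2% without the block. The EHMT1 level rests on few counts, which limits its precision.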

Other observations

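Chosen after their values were seen, the 3 near-identical NOMO genes, which encode a subunit of a membrane-protein assembly complex of the endoplasmic reticulum, fell together: NOMO1 (-0.5, adjusted p = 1.3e-05), NOMO2 (-0.51, adjusted p = 0.000492) and NOMO3 (-0.45, adjusted p = 4.74e-05). Because they are near-identical, reads may be shared and the 3 values are not independent. In the direct contrasts NOMO1 was also lower than with G9a depletion (-0.61, adjusted p = 7.65e-07) and HP1γ depletion (-0.54, adjusted p = 2.94e-06).

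Subunits of the translation initiation factor eIF2 moved apart, also chosen after their values were seen. EIF2S1 rose (0.21, adjusted p = 0.0181) and EIF2S3 fell (-0.24, adjusted p = 0.00684). Calls lost when the replicate block was left out had an adjusted p of 0.303 for EIF2S1 and 0.0704 for EIF2S3. Leave-one-out fits lost the call for EIF2S1 in 9 of 9 such fits (up to 0.408) and EIF2S3 in 2 of 9 such fits (up to 0.269), the adjusted p standing in parentheses.

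A pair of transcripts with few counts had large fitted rises. ARHGAP24, a Rac GTPase-activating protein, had 2, 4 and 1 counts in the shNS libraries and 39, 38 and 45 in the shGLP libraries, with 15, 12 and 16 in the shHP1γ libraries. GZMA, a granzyme of cytotoxic lymphocytes, had 14, 4 and 6 counts with shNS, 59, 82 and 65 with shGLP and 42, 59 and 64 with shG9a. Neither gene's shGLP and shNS counts overlapped. PCK2 transcript NM_001018073, of a mitochondrial gluconeogenic enzyme, fell in ethanol (-0.71, adjusted p = 0.00966) and was at 0.23 in dex, a difference that the interaction test did not call (adjusted p = 0.284). Its call in ethanol was lost without the replicate block (adjusted p = 0.113), with counts summed per gene and in 4 of 9 fits that left out 1 replicate or library (up to 0.416).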
